A study of Mus musculus with 56 samples.

Results

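The WNT genes described here are 44 genes that encode ligands, receptors, inhibitors, feedback regulators and readouts of WNT signalling, found among the 50600 genes of the deposited tables by their Ensembl identifiers through GENCODE M21 symbols. They comprise 18 ligands, 10 frizzled receptors, 2 coreceptors, 4 inhibitors, 6 feedback genes and readouts, 2 nuclear factors and 2 receptors for R-spondins. All 44 were present. RNA was sequenced from cortical (cTECs) and medullary (mTECs) thymic epithelial cells of B6.SJL females, either non-pregnant or mated with BALB/cJ males, and the pups were removed at birth, so that no dam nursed. The age of the females was not given in the sources used here. Each cell type had 28 samples. There were 3 each of non-pregnant controls (NPC), of day 18 of gestation (D-2), of the day of parturition (D0) and of D3, D6 and D12. A further 10 days had 1 sample each, of which D1, D2, D4, D5, D8 and D10 fell between these and D16, D20, D24 and D28 after them. Each replicate came from a single mouse, and the cells were enriched with EpCAM beads and sorted after papain digestion. The study defined thymic epithelial cells as positive for EpCAM and negative for CD45, with cTECs negative and mTECs positive for UEA1.

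WNT ligands are secreted, lipid-modified proteins. They bind frizzled receptors together with LRP5 or LRP6, which keeps beta-catenin from being degraded so that it can act with TCF/LEF factors in the nucleus, while some ligands work through frizzled or other receptors without beta-catenin. Feedback genes such as Axin2, Nkd1, Notum, Rnf43 and Znrf3 are switched on by the pathway and damp it. In the thymus, WNT ligands made by the epithelium are known for their part in epithelial Foxn1 expression and in early thymocyte development.

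Libraries held between 4561208 and 108547384 expected counts, and the median library 22823581 for cTECs and 15590738 for mTECs. At an equal depth of 4561199 counts, 3 libraries had the fewest genes with at least 3 counts, namely cTEC D3 replicate 2 (10001), mTEC D3 replicate 1 (11670) and cTEC D20 (12431), and values without all 3 are given beside the calls that they touch. The summed FPKM of 9 cTEC markers (Psmb11, Prss16, Ccl25 and others) averaged 7165 in cTEC samples and 1712 in mTEC samples, and that of 9 mTEC markers (Aire, Fezf2, Ccl21a and others) 5748 and 14960. The samples labelled cTEC thus also held mTEC marker RNA, led by Ccl21a with a mean of 4004 FPKM and Krt5 with 1654 FPKM, whereas Aire averaged 6.51 FPKM there and 112.5 FPKM in mTECs. The sum of 8 macrophage and dendritic cell markers averaged 17.4 FPKM in cTEC and 81.0 FPKM in mTEC samples, with 3 and 1 of the 8 under 0.5 FPKM on average. Its part in the WNT levels was not tested. In such bulk samples, fewer cells of a type and less RNA per cell cannot be told apart.

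The first question was which ligands and receptors each cell type expressed. Levels are given as FPKM, in which counts are divided by transcript length and by the fragments of the library, so that genes can be set beside each other. A mean of at least 0.5 FPKM over the 28 samples of a cell type was taken as expressed. By this measure 32 of the 44 genes were expressed in cTECs and 36 in mTECs, 31 of them in both. For the ligands the numbers were 10 of 18 in cTECs and 13 of 18 in mTECs, with 9 in both. Wnt3a was the only ligand past this level in cTECs alone, and Wnt2b, Wnt3, Wnt8b and Wnt10b were past it in mTECs alone. Wnt3a lay close to the limit, with 0.506 FPKM in cTECs and 0.208 FPKM in mTECs. Its median over the cTEC samples was 0.395 FPKM and its mean from D0 to D12 was 0.391 FPKM. The cTEC samples of D16, D20, D24 and D28 had 1.10, 1.98, 1.08 and 1.46 FPKM, above every one from D0 to D12. Wnt1, Wnt7a, Wnt9b and Wnt16 stayed under it in both. The receptor side was the same in both cell types, since 9 of 10 frizzled genes (all but Fzd9), both coreceptors and 1 of 2 R-spondin receptors (Lgr4 and not Lgr5) were expressed in each. Notum, which encodes a secreted enzyme that inactivates WNT ligands, was at 0.496 FPKM in cTECs, just under the limit, and at 0.630 FPKM in mTECs. When at least 0.5 FPKM in every one of the 28 samples was asked for instead, 19 of the 44 genes remained in cTECs and 24 in mTECs.

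**Figure D1:**
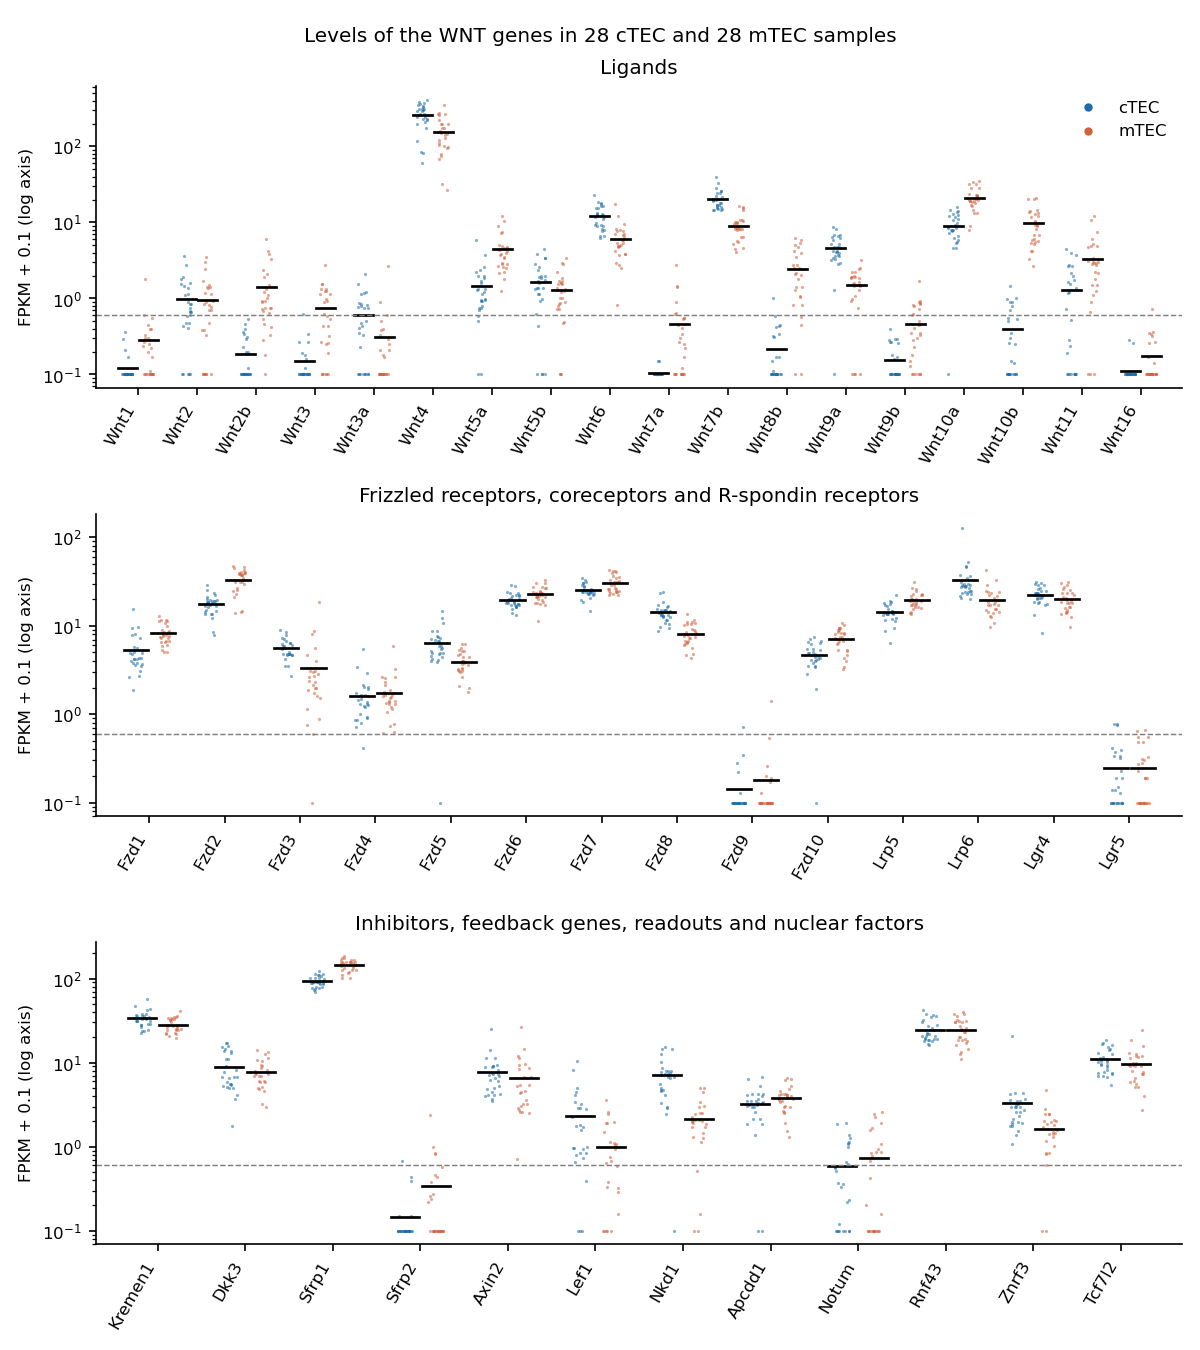
FPKM plus 0.1 on a log axis for the 44 WNT genes, with 1 point per sample (28 cTEC samples in blue, 28 mTEC samples in orange), a black line at the mean and a dashed line at 0.5 FPKM. On average Wnt4 and Sfrp1 stand above all other genes in both cell types, and Wnt10b is the 1 gene whose cTEC and mTEC points do not overlap.

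Wnt4 was the most abundant ligand. This gene (chr4:137277489-137299726, plus strand, GRCm38), whose product can signal with or without beta-catenin, had 60.9 FPKM in the lowest, 264.5 in the median and 411.3 in the highest cTEC sample. In mTECs the corresponding values were 27.0, 147.8 and 346.8 FPKM. It made up 81.2% ± 8.14 (SD, n = 28) of the summed FPKM of the 18 ligands in cTECs and 67.6% ± 14.8 in mTECs. In cTECs Wnt7b followed with 7.28% ± 3.10. In mTECs, Wnt10a gave 10.4% ± 3.80 and Wnt10b 5.52% ± 5.13. The summed ligand level was 310.5 ± 94.4 FPKM in cTECs and 218.5 ± 74.6 FPKM in mTECs.

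The other ligands with a mean of at least 5 FPKM in a cell type were Wnt6, Wnt7b, Wnt10a and, in mTECs, Wnt10b. Wnt7b, known from epithelia in which it acts through beta-catenin, ranged from 14.5 to 39.4 FPKM (median 19.2) in cTECs and from 3.98 to 16.2 FPKM (median 8.44) in mTECs. Wnt6 ranged from 6.23 to 22.9 FPKM (median 11.9) in cTECs and from 0.720 to 17.3 FPKM (median 5.25) in mTECs. For Wnt10a, a ligand of skin appendages and teeth, the order of the cell types was turned, with 0 to 15.7 FPKM (median 8.28) in cTECs and 7.94 to 34.6 FPKM (median 19.99) in mTECs. The single 0 was the cTEC D3 library with the fewest genes, and the next lowest cTEC value was 4.52 FPKM. Between 1 and 5 FPKM on average stood Wnt5a, Wnt5b, Wnt9a and Wnt11 in both cell types, and Wnt2b and Wnt8b in mTECs.

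Among the frizzled receptors, Fzd7, Fzd6 and Fzd2 led in both cell types. Fzd7 ranged from 14.8 to 34.4 FPKM (median 24.2) in cTECs and from 22.0 to 42.7 FPKM (median 29.0) in mTECs. Fzd6 ranged from 13.3 to 28.7 FPKM (median 18.3) in cTECs and from 11.1 to 32.5 FPKM (median 22.8) in mTECs. Fzd2 ranged from 7.78 to 28.5 FPKM (median 18.2) in cTECs and from 14.0 to 47.6 FPKM (median 35.7) in mTECs. These 3 genes made up 25.2%, 19.7% and 17.7% of the frizzled sum in cTECs, in the order given, and 25.6%, 19.4% and 27.7% in mTECs. The neighbours Fzd2 and Fzd7 in the mTEC order were not set apart by their spread, since Fzd2 was the higher of them in 16 of 28 samples. Unlike the ligand sum, the frizzled sum varied little, at 99.3 ± 10.1 FPKM in cTECs and 117.9 ± 15.4 FPKM in mTECs (SD, n = 28). Fzd8 was the fourth frizzled of cTECs, with 8.53 to 23.95 FPKM (median 13.5), against 4.20 to 13.4 FPKM (median 7.63) in mTECs. Fzd1, Fzd3, Fzd5 and Fzd10 averaged between 3.27 and 8.10 FPKM in the 2 cell types and Fzd4 between 1.52 and 1.66 FPKM, while Fzd9 was listed at 0 in 23 cTEC and 21 mTEC samples.

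Both coreceptors were well expressed. Lrp6 ranged from 20.1 to 128.2 FPKM (median 28.3) in cTECs and from 9.71 to 42.7 FPKM (median 17.9) in mTECs. The cTEC maximum was D3 replicate 2, the library with the fewest genes, and the next highest value was 52.7 FPKM. Lrp5 ranged from 6.37 to 22.4 FPKM (median 13.8) in cTECs and from 13.5 to 31.6 FPKM (median 18.8) in mTECs. Lgr4, a receptor that binds R-spondins and so protects frizzled receptors from removal, ranged from 8.20 to 31.3 FPKM (median 22.4) in cTECs and from 9.52 to 31.6 FPKM (median 18.7) in mTECs. Its relative Lgr5, a stem cell marker of the gut, did not exceed 0.680 FPKM in any sample.

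Sfrp1 was the leading inhibitor. Its product binds WNT ligands outside the cell, and its RNA was the second most abundant of the 44 genes in both cell types, with 69.9 to 122.8 FPKM (median 90.5) in cTECs and 100.9 to 185.3 FPKM (median 153.0) in mTECs. In cTECs Wnt4 was higher than Sfrp1 in 26 of 28 samples, but in mTECs in 15 of 28, so that the order of the pair was not set there. Kremen1, a receptor that removes LRP6 when bound by DKK proteins, ranged from 22.3 to 56.8 FPKM (median 32.9) in cTECs and from 19.5 to 40.6 FPKM (median 27.0) in mTECs. Dkk3, a divergent member of the Dickkopf family, ranged from 1.66 to 17.1 FPKM (median 6.67) in cTECs and from 2.88 to 14.2 FPKM (median 7.13) in mTECs. Sfrp2 was listed at 0 in 23 cTEC and 16 mTEC samples.

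Of the feedback genes, Rnf43, a ubiquitin ligase that removes frizzled receptors, was the most abundant, with 16.2 to 41.7 FPKM (median 22.0) in cTECs and 11.0 to 40.1 FPKM (median 23.8) in mTECs. Axin2, a scaffold of the beta-catenin destruction complex and a widely used readout of the pathway, ranged from 3.43 to 25.2 FPKM (median 6.99) in cTECs and from 0.610 to 26.1 FPKM (median 5.22) in mTECs. Its maxima were the single D1 sample in cTECs and D3 replicate 1, the mTEC library with the fewest genes, in mTECs. Nkd1, which binds Dishevelled, ranged from 0 to 15.3 FPKM (median 6.81) in cTECs and from 0 to 4.86 FPKM (median 1.91) in mTECs. Apcdd1 and Znrf3 averaged 3.14 and 3.24 FPKM in cTECs and 3.69 and 1.54 FPKM in mTECs. Of the nuclear factors, Tcf7l2 ranged from 5.36 to 18.5 FPKM (median 10.2) in cTECs and from 2.62 to 24.1 FPKM (median 8.98) in mTECs, whereas Lef1 averaged 2.21 and 0.898 FPKM. Lef1 is also a thymocyte gene. The sum of 14 thymocyte markers averaged 126.7 FPKM (27.9 to 421.8) in cTEC samples and 46.5 FPKM (21.5 to 108.0) in mTEC samples, with 0 and 1 of the 14 under 0.5 FPKM on average, and its part in the Lef1 level was not tested.

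The comparison of cTECs with mTECs was made over the 6 replicated time points, with 18 samples of each cell type. A gene passed if limma-voom gave an adjusted p no larger than 0.01 (Benjamini-Hochberg, over all genes tested) and the groups differed 2-fold or more. Of the 37 WNT genes that were expressed in at least 1 cell type and so were tested, 12 passed, 6 higher in each cell type. This share of 32.4% stood beside 17.1% of all 18368 genes tested, and the median log2 fold change was 0.14 for the WNT genes and -0.001 for all genes. These counts include genes that entered the test only through the cell type in which they were higher, among them Wnt2b, Wnt3, Wnt8b and Wnt10b. Of the 31 WNT genes expressed in both cell types 8 passed (25.8%), 6 higher in cTECs and 2 higher in mTECs, beside 13.4% of the 15193 such genes in all. By role these 8 were 5 of 9 ligands, 1 of 9 frizzled receptors and 2 of 5 feedback genes, and none of the 8 coreceptors, inhibitors, nuclear factors and R-spondin receptors tested passed. All 12 kept their direction in every alternative fit run, but the filter had set that of Wnt2b, Wnt3, Wnt8b and Wnt10b.

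Higher in mTECs were 6 ligands. Of these, Wnt10b, Wnt8b, Wnt2b and Wnt3 entered the test only through their mTEC levels, so that their direction was set by the filter. The largest difference was that of Wnt10b (chr15:98770712-98778150, minus strand), a ligand known from mammary gland and hair follicle. It was at 0 in 12 of 28 cTEC samples, with a median of 0.100 and a maximum of 1.34 FPKM, and at 2.58 to 20.6 FPKM (median 8.94) in mTECs, so that the cell types did not overlap. The fitted log2 difference, cTEC over mTEC, was -6.19 ± 0.50 (SE), with an adjusted p of 8.28e-12. The ratio of the mean FPKM values was 32.9, and the fitted value is larger because it averages logarithms of counts that were often 0 in cTECs. Wnt10b was higher in the mTEC sample of all 26 pairs that shared a time point and a title number. Wnt8b (chr19:44493472-44514273, plus strand), a ligand of the developing forebrain, had 0 to 0.910 FPKM (median 0) in cTECs and 0 to 6.11 FPKM (median 2.02) in mTECs. Its log2 difference was -4.97 ± 0.49 (adjusted p = 6.39e-10), and it was higher in mTECs in 24 of 26 pairs.

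The remaining 4 of these ligands were Wnt2b, Wnt3, Wnt5a and Wnt10a. Wnt2b had at most 0.430 FPKM in cTECs and a median of 0.815 FPKM (0 to 5.95) in mTECs, a log2 difference of -3.90 ± 0.58 (adjusted p = 1.58e-06). Wnt3 had at most 0.530 FPKM in cTECs and a median of 0.465 FPKM (0 to 2.67) in mTECs, a log2 difference of -3.61 ± 0.56 (adjusted p = 3.71e-06). Both were low everywhere. Wnt5a, the best known ligand of beta-catenin-independent signalling, had 0 to 5.73 FPKM (median 1.08) in cTECs and 1.16 to 12.02 FPKM (median 3.80) in mTECs, and its difference was -2.09 ± 0.39 (adjusted p = 4.50e-05). For Wnt10a, whose levels are given above, the difference was -1.60 ± 0.33 (adjusted p = 0.000183), with the mTEC sample higher in 25 of 26 pairs.

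Higher in cTECs were 3 ligands, 1 receptor and 2 feedback genes. Wnt9a had 0 to 8.60 FPKM (median 4.07) in cTECs and 0 to 3.15 FPKM (median 1.43) in mTECs, a log2 difference of 2.71 ± 0.67 (adjusted p = 0.00150). The 0 in cTECs was D3 replicate 2, and 4 mTEC samples were listed at 0. The ratio of the mean FPKM values of Wnt9a was 3.225, below the 3.46 of Nkd1, although its fitted difference was the larger. The differences of Wnt7b (1.34 ± 0.14, adjusted p = 3.82e-09) and Wnt6 (1.23 ± 0.23, adjusted p = 4.97e-05) were smaller, and these genes were higher in cTECs in 25 and 24 of 26 pairs. Fzd3, a receptor known from axon guidance and planar polarity, had 2.62 to 8.98 FPKM (median 5.44) in cTECs and 0 to 18.4 FPKM (median 2.41) in mTECs, with a log2 difference of 1.42 ± 0.30 (adjusted p = 0.000304). In NPC its mean was higher in mTECs, with 8.63, 18.35 and 2.98 FPKM against 5.85, 5.88 and 7.05 FPKM in cTECs. At each of the other replicated time points the cTEC mean of Fzd3 was the higher. Nkd1 differed by 1.87 ± 0.50 (adjusted p = 0.00309) and was higher in cTECs in 23 of 26 pairs.

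The call for Znrf3, the second ubiquitin ligase that removes frizzled receptors, was less firm. It had 0.990 to 20.4 FPKM (median 2.73) in cTECs and 0 to 4.67 FPKM (median 1.51) in mTECs, and its log2 difference was 1.43 ± 0.41 (adjusted p = 0.00558). The cTEC maximum was D3 replicate 2, and the next highest value was 4.27 FPKM. Without the 3 libraries with the fewest genes the difference was 1.04 (adjusted p = 0.00995). It did not pass without mTEC D0 replicate 2 (0.99, adjusted p = 0.0151), without mTEC D12 replicate 2 (1.36, adjusted p = 0.0126), without mTEC D-2 replicate 4 (1.44, adjusted p = 0.0106) or without cTEC D-2 replicate 3 (1.37, adjusted p = 0.0121). With edgeR's quasi-likelihood test its difference was 0.80 (adjusted p = 0.138) and with DESeq2 0.71 (adjusted p = 0.110). Wnt9a missed the threshold with edgeR (1.86, adjusted p = 0.0118), and Wnt6 was just below 2-fold with DESeq2 (0.983).

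**Figure D2:**
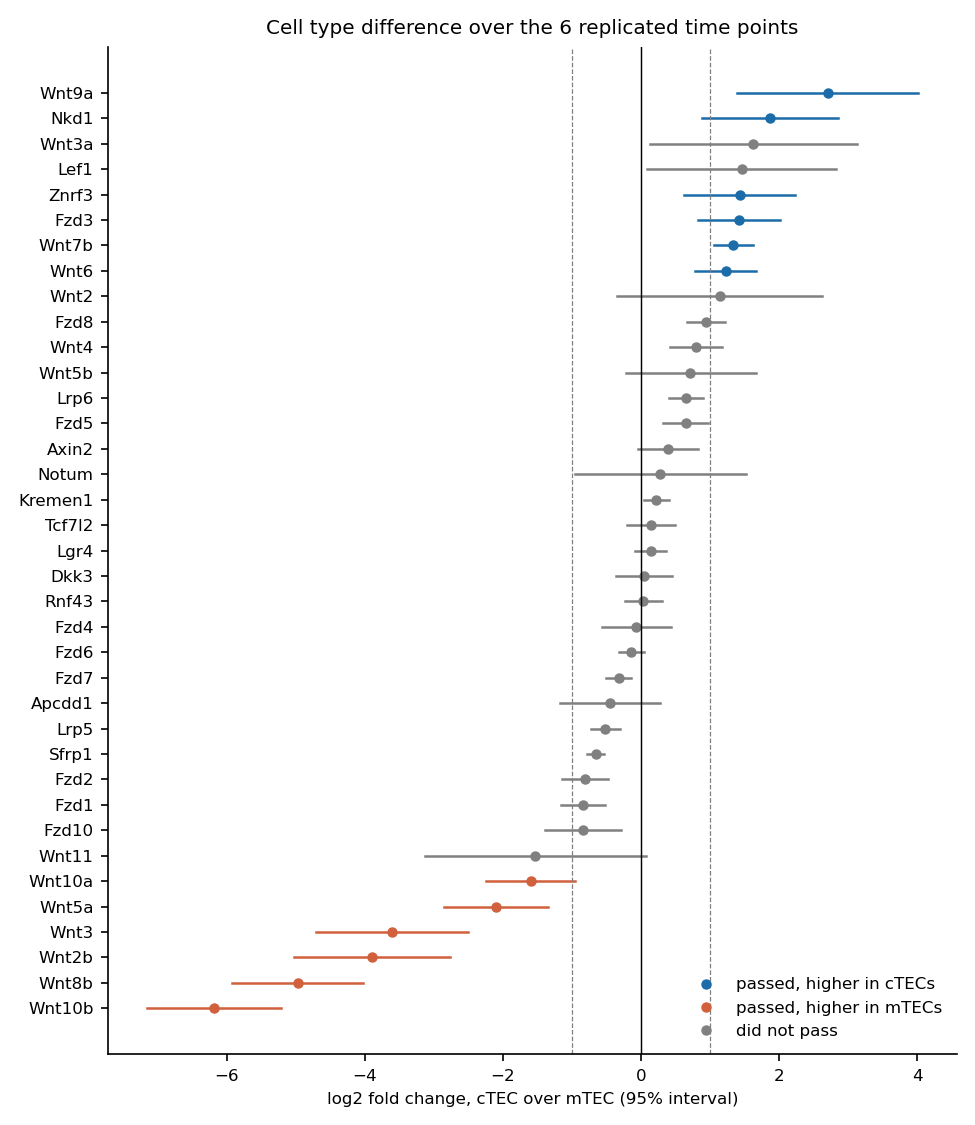
Fitted log2 fold change of cTECs over mTECs for the 37 WNT genes tested, with 95% intervals, over 18 samples per cell type. Blue and orange mark the 6 genes higher in cTECs and the 6 higher in mTECs, grey those that did not pass, and the dashed lines stand at a fold change of 2; the ligands Wnt10b and Wnt9a lie at the 2 ends.

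Several abundant genes differed by less than 2-fold with small adjusted p-values and were not called. Wnt4 was higher in cTECs by 0.80 ± 0.19 on the log2 scale (adjusted p = 0.00118) and in 23 of 26 pairs. Fzd8 was higher in cTECs by 0.94 ± 0.14 (adjusted p = 1.49e-06), and without the 3 libraries with the fewest genes it passed. Sfrp1 was lower in cTECs, by -0.65 ± 0.06 (adjusted p = 8.19e-10), in all 26 pairs. The 2 coreceptors went opposite ways, with Lrp6 at 0.66 ± 0.13 (adjusted p = 7.94e-05) and Lrp5 at -0.52 ± 0.11 (adjusted p = 0.000153). Fzd1 and Fzd2 were at -0.84 ± 0.16 and -0.81 ± 0.17 (adjusted p = 8.03e-05 and 0.000214). For the readout Axin2 the 95% interval of the log2 difference ran from -0.04 to 0.82 and for Rnf43 from -0.23 to 0.30.

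WNT ligand genes lie in neighbouring pairs in the mouse genome, and the members of a pair were not always higher in the same cell type. Wnt6 and Wnt10a lie 6193 bases apart on chromosome 1 in the same orientation, with no protein-coding gene between them. By limma-voom Wnt6 passed as higher in cTECs and Wnt10a as higher in mTECs. Wnt10b and Wnt1 lie 11706 bases apart on chromosome 15, facing away from each other. There Wnt10b was abundant in mTECs, whereas Wnt1 averaged 0.185 FPKM in mTECs and 0.0225 FPKM in cTECs. On chromosome 11, Wnt9a passed as higher in cTECs, and its neighbour Wnt3a, 16175 bases away, had a log2 difference of 1.63 ± 0.77 (adjusted p = 0.0902). Wnt3 passed as higher in mTECs, and its neighbour Wnt9b, 24328 bases away, averaged 0.366 FPKM in mTECs and 0.0561 FPKM in cTECs and was under the limit for testing.

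Promoter sequences were available for 28 of the 44 genes in a RefSeq table (GRCm38.p6). Shown here are the 250 bases before the annotated start of 3 ligands with the cell type preferences above and of Fzd1, whose course is described further on. None of these windows overlaps a GENCODE M21 exon. Capitals mark matches to CTTTGA or CTTTGT, the core that TCF/LEF factors bind, searched on both strands without overlap between the 2 motifs; each sequence is written 5′ to 3′ on the strand of its gene.
Wnt6, chr1:74771642-74771891, plus strand: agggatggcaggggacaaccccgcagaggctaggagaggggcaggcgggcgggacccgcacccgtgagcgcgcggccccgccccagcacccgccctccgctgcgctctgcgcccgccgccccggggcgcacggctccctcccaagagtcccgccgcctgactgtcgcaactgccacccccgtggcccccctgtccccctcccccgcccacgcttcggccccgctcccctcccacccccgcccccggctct
Wnt10b, chr15:98778151-98778400, minus strand: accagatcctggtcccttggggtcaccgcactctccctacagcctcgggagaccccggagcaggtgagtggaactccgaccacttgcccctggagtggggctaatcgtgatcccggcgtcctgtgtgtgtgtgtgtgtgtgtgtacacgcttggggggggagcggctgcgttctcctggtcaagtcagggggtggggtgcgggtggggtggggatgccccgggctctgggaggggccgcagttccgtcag
Wnt8b, chr19:44493222-44493471, plus strand: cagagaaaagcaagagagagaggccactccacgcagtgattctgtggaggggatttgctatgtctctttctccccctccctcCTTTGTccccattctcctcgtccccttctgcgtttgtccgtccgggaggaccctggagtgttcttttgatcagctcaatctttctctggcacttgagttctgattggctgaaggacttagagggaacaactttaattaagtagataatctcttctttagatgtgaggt
Fzd1, chr5:4758217-4758466, minus strand: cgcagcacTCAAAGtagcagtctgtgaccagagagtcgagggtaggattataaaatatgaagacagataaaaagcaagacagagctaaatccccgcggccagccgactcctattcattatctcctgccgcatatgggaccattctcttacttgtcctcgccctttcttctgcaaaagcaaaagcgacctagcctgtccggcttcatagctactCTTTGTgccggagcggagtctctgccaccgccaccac
The Wnt8b window held 1 match and the Fzd1 window 2, while those of Wnt6 and Wnt10b held none. Such matches are common, since 27.6% of all 32851 windows of this length in the table held at least 1, against 19.4% of the 36 windows of the WNT genes. Wnt6 had 79.6% G and C, Wnt10b 66.8%, Fzd1 51.2% and Wnt8b 48.4%.

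The next question was whether the WNT genes changed around parturition. Over the 6 replicated time points, from NPC to D12, none of 32 tested WNT genes passed in cTECs by limma-voom, against 1.04% of all 15822 genes tested. At an unadjusted p under 0.05 there were 4 of the 32 (12.5%, beside 16.9% of all genes), and edgeR and DESeq2 also called none. In mTECs 1 of 36 passed, Wnt8b, against 0.937% of all 17720 genes, and 8 of 36 had an unadjusted p under 0.05 (22.2%, beside 22.4% of all genes). The test of whether the courses differed between the cell types called none of 37, against 0.098% of all 18368 genes, with 8 at an unadjusted p under 0.05 (21.6%, beside 12.7% of all genes) and none by edgeR or DESeq2.

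Wnt8b in mTECs had 1.72, 2.05 and 2.62 FPKM in NPC and 4.65, 3.83 and 1.91 FPKM at D-2. Values then were 0.710, 1.31 and 1.18 FPKM at D0 and 0, 0 and 0.470 FPKM at D3. They were 2.41, 0.35 and 1.33 FPKM at D6 and 5.22, 4.96 and 6.11 FPKM at D12. The 3 D3 samples lay below all others of the replicated time points except D6 replicate 2, and the 3 D12 samples above all others. The fitted means spanned 6.55 on the log2 scale (adjusted p = 0.00634, F test of limma-voom), a size that depends on the zeros at D3. The single samples between them were not monotonic, with 0.990 FPKM at D4, 4.07 at D5, 2.42 at D8 and 5.82 at D10. The gene did not pass without mTEC D3 replicate 1, the library with the fewest genes (adjusted p = 0.0236), without D3 replicate 2 (0.0308), or without any one of D-2 replicates 1 and 3, D0 replicates 1 and 4, D6 replicate 4 and the 3 D12 samples, with adjusted p-values of 0.0104 to 0.0205. With edgeR the adjusted p was 0.262 and with sample quality weights 0.0880.

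**Figure D3:**
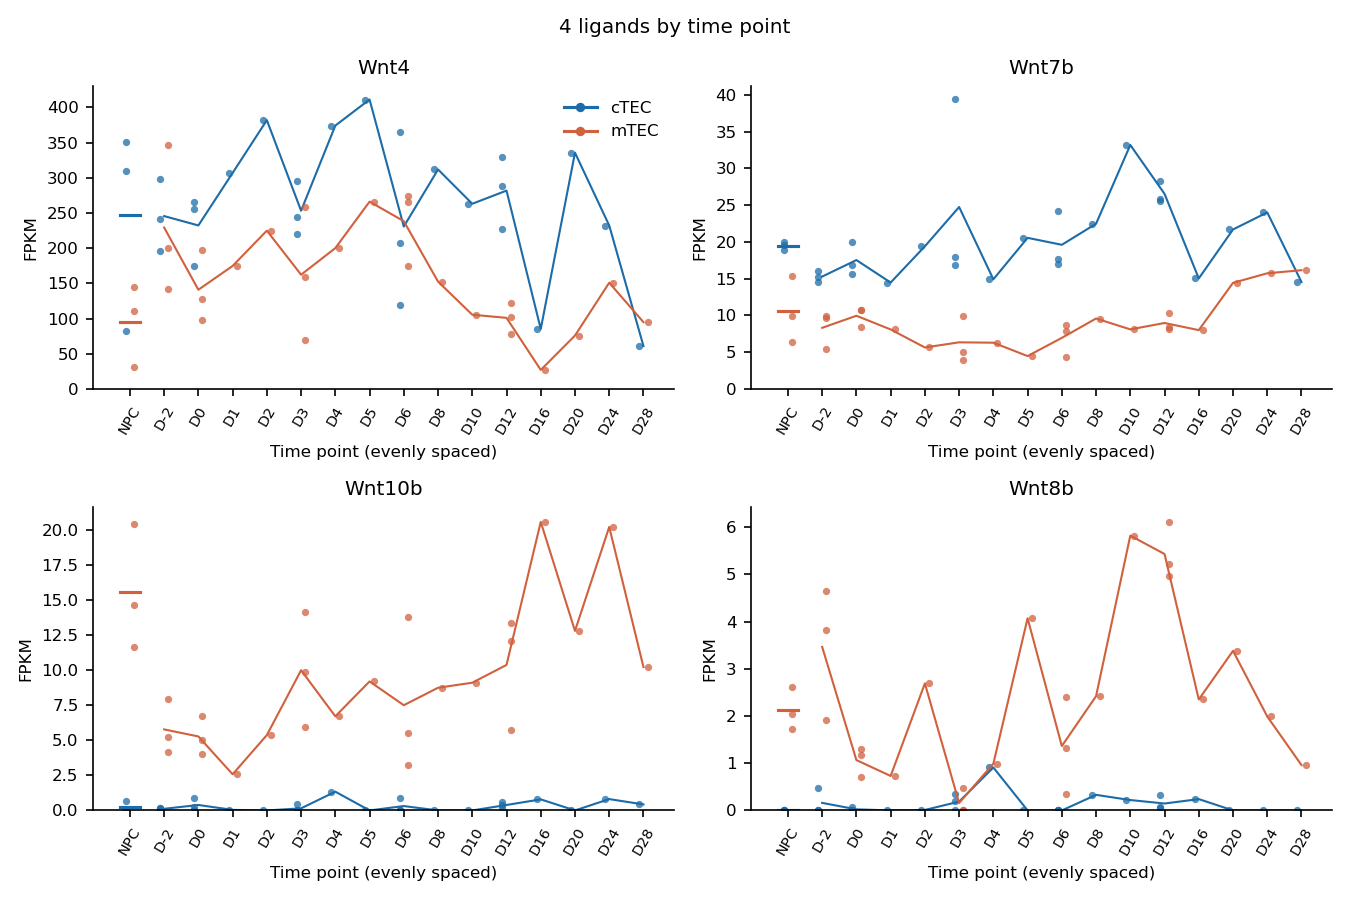
FPKM of Wnt4, Wnt7b, Wnt10b and Wnt8b at each time point in cTECs (blue) and mTECs (orange). Points are samples, lines join the time point means from D-2 to D28, short bars mark the NPC mean, and time points are evenly spaced, not to scale; in cTECs Wnt10b reaches at most 1.34 FPKM and Wnt8b at most 0.910 FPKM.

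At the end of gestation, D-2 against NPC, no WNT gene passed in either cell type by limma-voom, edgeR or DESeq2, against 0.158% of all genes tested in cTECs and 0.649% in mTECs. Unadjusted p-values under 0.05 numbered 2 of 32 in cTECs (6.25%, beside 8.60% of all genes) and 4 of 36 in mTECs (11.1%, beside 17.3%). The largest such difference by p was Wnt10b in mTECs, with 14.7, 11.7 and 20.5 FPKM in NPC and 7.99, 5.23 and 4.14 FPKM at D-2. The groups did not overlap, and the log2 difference was -1.63 ± 0.40 (adjusted p = 0.0337). Wnt4 in mTECs had 144.8, 110.7 and 31.7 FPKM in NPC and 346.8, 141.8 and 199.6 FPKM at D-2, a difference of 1.32 ± 0.44 (adjusted p = 0.118) with 1 D-2 sample below the highest NPC sample. The median log2 difference of the WNT genes in mTECs was 0.05, and that of all genes tested was 0.12.

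Between D-2 and D6, the period of early regrowth after birth, 1 of 32 tested WNT genes passed in cTECs, against 1.85% of all genes, and none of 36 in mTECs, against 0.119%. In mTECs 2 of the 36 had an unadjusted p under 0.05 (5.56%, beside 7.64% of all genes), and edgeR and DESeq2 called none. The gene that fell in cTECs was Dkk3 (chr7:112116017-112159057, minus strand). It had 10.9, 15.6 and 13.5 FPKM at D-2 and 1.66, 5.27 and 5.20 FPKM at D6, without overlap. The log2 difference was -2.03 ± 0.41 (adjusted p = 0.00516). Without D6 replicate 2, the lowest sample, it was -1.37 (adjusted p = 0.0393), without D-2 replicate 3 -1.90 (adjusted p = 0.0362) and without D-2 replicate 4 -2.03 (adjusted p = 0.0159), none of which passed. It also did not pass with edgeR (-1.77, adjusted p = 0.0318), without the filter on low genes (adjusted p = 0.0310) or with the samples of these time points alone (adjusted p = 0.0139). In mTECs Dkk3 differed by -1.20 ± 0.52 (adjusted p = 0.552), and whether the cell types differed was tested only through the course over all 6 time points, where Dkk3 did not pass.

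No other WNT gene passed over this interval in cTECs. Kremen1, on which DKK proteins act, had 23.9, 23.5 and 27.97 FPKM at D-2 and 43.2, 38.2 and 47.2 FPKM at D6. These values did not overlap, and the log2 difference of 0.73 ± 0.19 (adjusted p = 0.0243) was below the 2-fold threshold. Wnt4 ranged from 196.5 to 298.8 FPKM at D-2 and from 118.8 to 365.6 FPKM at D6. The sum of the 9 cTEC markers averaged 1557 FPKM at D-2 and 11350 FPKM at D6. That of 10 fibroblast markers, mostly Dcn over all cTEC samples, averaged 322.6 and 162.4 FPKM. The part of these shifts in the Dkk3 difference was not tested.

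Samples of the early phase (D0 to D12, 18 per cell type) were then compared with those of the late phase (D16, D20, D24 and D28, 1 sample each). The fit held no term for day, so that its standard errors and p-values mix differences between days with those between mice. In cTECs 2 of 32 tested WNT genes rose, against 1.41% of all 15833 genes, and in mTECs none of 36 passed, against 0.0621% of all 17725 genes. Unadjusted p-values under 0.05 numbered 13 of 32 in cTECs (40.6%, beside 27.2% of all genes) and 13 of 36 in mTECs (36.1%, beside 20% of all genes), and in mTECs edgeR and DESeq2 called none either. Fzd1 (chr5:4753839-4758035, minus strand) had 1.79 to 5.64 FPKM (median 3.96) in early cTECs and 7.10, 15.5, 9.46 and 7.98 FPKM at D16, D20, D24 and D28. Every late sample lay above every early one, and the log2 difference was 1.32 ± 0.20 (adjusted p = 0.000281). Fzd1 still passed without D20, the highest sample and 1 of the libraries with few genes, and without all 3 of these libraries the difference was 1.04 (adjusted p = 0.00327). With sample quality weights it was 0.87 (adjusted p = 0.000794) and below 2-fold. NPC cTECs had 4.20, 3.52 and 9.69 FPKM.

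Dkk3 was the other gene that rose. It had 1.66 to 16.8 FPKM (median 5.44) in early cTECs and 7.71, 15.1, 12.8 and 17.1 FPKM in the late samples, in order of day. The phases overlapped, since 4 early samples lay above the lowest late one, and the log2 difference was 1.28 ± 0.25 (adjusted p = 0.00263). Without D20 it was 1.22 (adjusted p = 0.0151) and without D28 1.16 (adjusted p = 0.0271), and without the 3 libraries with the fewest genes 1.15 (adjusted p = 0.0216), none of which passed. It did not pass with edgeR (0.89, adjusted p = 0.173) or DESeq2 (0.93, adjusted p = 0.0902). When D12 was counted as late, neither gene passed, with 1.02 for Fzd1 (adjusted p = 0.0779) and 0.81 for Dkk3 (adjusted p = 0.243). NPC samples had 8.07, 6.54 and 13.6 FPKM and those of D0 16.8, 10.9 and 9.09 FPKM, whereas from D1 to D12 all values were at most 6.69 FPKM except 14.3 FPKM in D3 replicate 3, and the D16 value was the lowest of the late ones.

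Nkd1 came close to the threshold in cTECs. It had 0 to 8.44 FPKM (median 5.17) in the early and 10.2, 14.4, 14.6 and 12.7 FPKM in the late samples, with no overlap, and a log2 difference of 1.44 ± 0.35 (adjusted p = 0.0118). It passed without the 3 libraries with the fewest genes and with 2 of the other scalings. In mTECs the corresponding differences were 0.33 ± 0.15 for Fzd1 (adjusted p = 0.224), 0.27 ± 0.20 for Dkk3 (adjusted p = 0.473) and -0.65 ± 1.01 for Nkd1 (adjusted p = 0.759). No test compared the late change of one cell type with that of the other.

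The sum of 10 fibroblast markers averaged 238.8 FPKM in early and 555.6 FPKM in late cTECs. The markers were not compared between the phases one by one. Their sum was 104.8 to 391.7 FPKM in early cTECs and 338.1 to 701.4 FPKM in late cTECs, and 95.3 to 193.6 and 130.5 to 205.1 FPKM in mTECs. Most of the cTEC sum was Dcn, with a mean of 258.8 FPKM over all cTEC samples, followed by Thy1 with 26.8 FPKM and Col3a1 with 21.2 FPKM. Dpt, Col1a2, Lum and Col1a1 averaged between 1.25 and 3.26 FPKM, and Pdgfra, Pdgfrb and Pi16 between 0.0836 and 0.285 FPKM. The part of fibroblast RNA in the late values of Fzd1, Dkk3 and Nkd1 was not tested. The sum of 4 epithelial markers fell over the same samples from a mean of 8389 FPKM in early to 4737 FPKM in late cTECs.

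**Figure D4:**
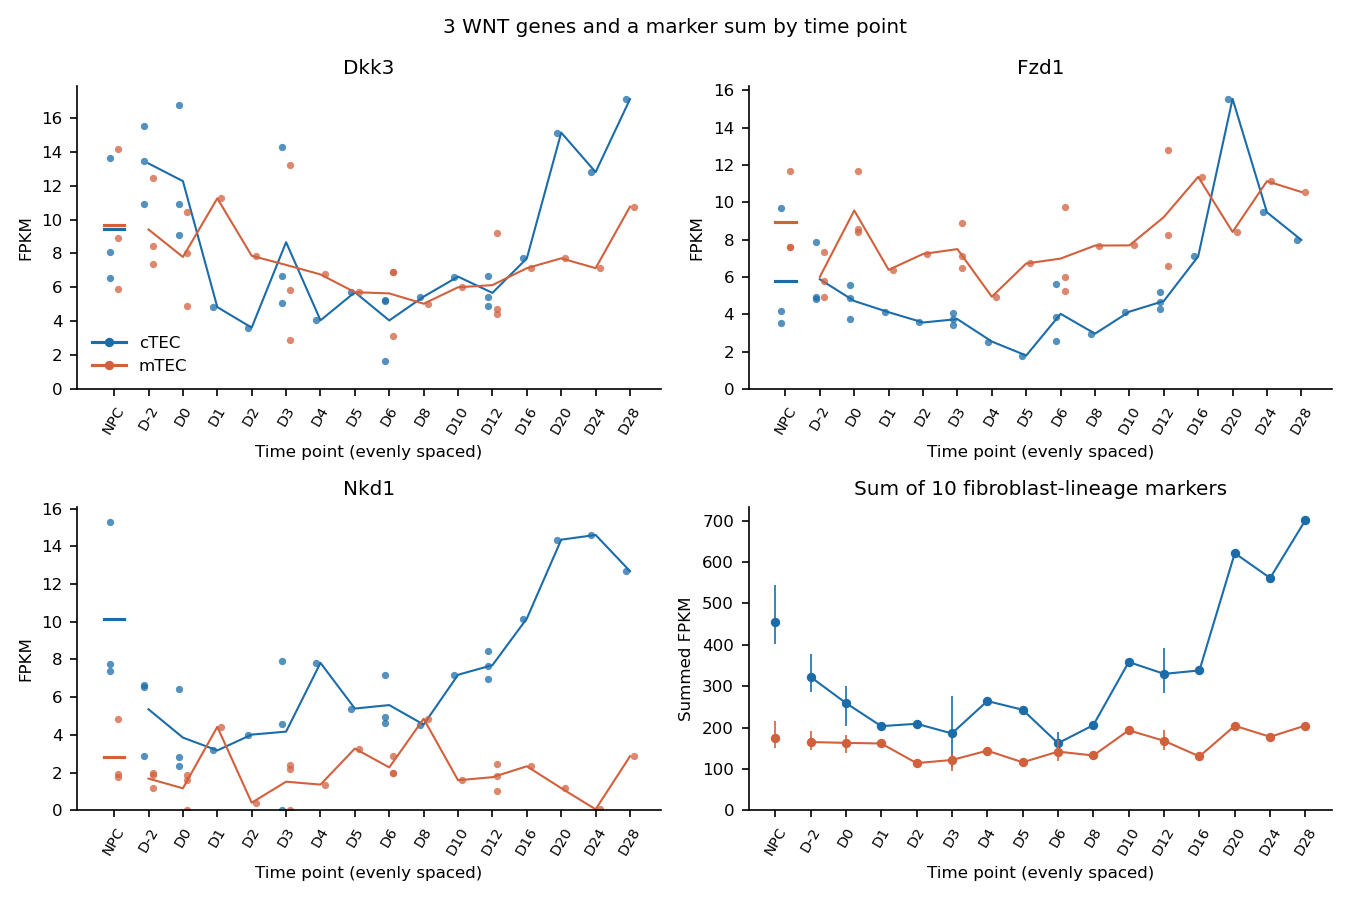
FPKM of Dkk3, Fzd1 and Nkd1 by time point in cTECs (blue) and mTECs (orange), with 1 point per sample and lines through the means, and the summed FPKM of 10 fibroblast markers with vertical lines from the lowest to the highest sample; time points are evenly spaced. In cTECs the means of all 4 panels are lower between D1 and D8 than from D20 to D28.

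Wnt4 did not pass the test of late against early in either cell type. In cTECs it had 85.2, 335.7, 232.2 and 60.9 FPKM at D16, D20, D24 and D28, against 118.8 to 411.3 FPKM (median 277.4) in the early samples. The log2 difference was -0.997 ± 0.32 (adjusted p = 0.0456), and D16 and D28 lay below every early sample. In mTECs it had 27.0, 75.9, 151.0 and 94.9 FPKM late and 69.2 to 274.8 FPKM (median 167.2) early, a difference of -1.18 ± 0.36 (adjusted p = 0.0793). Wnt10b in mTECs was at 20.6, 12.8, 20.2 and 10.2 FPKM late and at 2.58 to 14.2 FPKM early, a difference of 0.94 ± 0.22 (adjusted p = 0.0288), and Sfrp1 at 100.9 to 145.7 FPKM late and 115.6 to 185.3 FPKM early, a difference of -0.51 ± 0.12 (adjusted p = 0.0281). Without mTEC D16 replicate 1, Wnt7b passed in mTECs, with 8.0, 14.4, 15.7 and 16.2 FPKM late and 3.98 to 10.7 FPKM early. The sum of 8 macrophage and dendritic cell markers averaged 65.6 FPKM in early and 121.5 FPKM in late mTECs, with its highest value, 215.0 FPKM, at D16. Its part in the late mTEC values was not tested.

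Finally, 64 other genes of WNT signalling were followed as a list. In cTECs 48 and in mTECs 54 of them were expressed. Wls, which carries WNT ligands to the cell surface, averaged 137.0 FPKM in cTECs and 86.4 FPKM in mTECs, and beta-catenin (Ctnnb1) 222.4 and 188.4 FPKM. Of the 5 secreted agonists, Rspo1 was expressed in both cell types, with 0.822 and 1.18 FPKM, and the other 4 (Rspo2, Rspo3, Rspo4 and Ndp) in neither. Of 54 tested between the cell types, 11 passed, 2 of them higher in cTECs and 9 higher in mTECs, a share of 20.4% beside the 17.1% of all genes, of which 867 were higher in cTECs and 2265 in mTECs. Of the 48 that were expressed in both cell types 6 passed, or 12.5%, beside 13.4% of all such genes. The secreted inhibitor Sostdc1, expressed in both, was higher in mTECs (10.8 against 3.35 FPKM). The inhibitors Dkk1, Dkk2, Sfrp5 and Sost and the receptor gene Lgr6 also passed as higher in mTECs. These genes entered the test only through their mTEC levels, so that their direction was set by the filter. The largest differences of the list were all among these genes. They were those of Lgr6, a relative of Lgr4 (log2 difference -4.81 ± 0.60, adjusted p = 7.42e-08), Sfrp5 (-3.57 ± 0.70, adjusted p = 0.000109), Dkk2 (-3.51 ± 0.61, adjusted p = 1.96e-05) and Sost (-3.12 ± 0.76, adjusted p = 0.00133). Lgr6 averaged 1.32 FPKM, Sfrp5 3.02 FPKM and Dkk2 1.75 FPKM in mTECs.

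Over time, 1 of 54 passed for the mTEC course (1.85%, beside 0.937% of all genes) and for D-2 against NPC in mTECs (beside 0.649%), and 1 of 48 for D6 against D-2 in cTECs (2.08%, beside 1.85%) and for late against early in cTECs (beside 1.41%). None passed in the other comparisons over time by limma-voom, in which 3 to 9 of the list had an unadjusted p under 0.05. In cTECs these were 9 of 48 for the course (18.8%, beside 16.9% of all genes) and 3 of 48 for D-2 against NPC (6.25%, beside 8.60%). In mTECs they were 3 of 54 for D6 against D-2 (5.56%, beside 7.64%) and 8 of 54 for late against early (14.8%, beside 20%). For the courses of the cell types against each other they were 5 of 54 (9.26%, beside 12.7%). Csnk1e, a casein kinase that phosphorylates Dishevelled, passed in mTECs over the 6 time points (adjusted p = 0.00762) and was higher at D-2 than in NPC, with 67.7 ± 13.2 against 34.2 ± 8.88 FPKM (SD, n = 3) and a log2 difference of 1.17 ± 0.20 (adjusted p = 0.00250). The difference did not pass without D-2 replicate 1 (1.13, adjusted p = 0.0191), D-2 replicate 4 (1.201, adjusted p = 0.0148) or NPC replicate 3 (1.14, adjusted p = 0.0256), and the course did not pass without any one of 13 of the 18 libraries, namely all of D-2 and D12, D0 replicates 1 and 4, D3 replicates 1 and 2, D6 replicates 2 and 4 and NPC replicate 3 (adjusted p from 0.0109 to 0.0463). The difference also did not pass with edgeR (adjusted p = 0.0175) or with the samples of these time points alone (adjusted p = 0.0754), nor the course with edgeR (0.0221) or sample quality weights (0.0206). Tcf7l1, a TCF factor that mostly represses its targets, fell in cTECs from 22.8 ± 2.99 FPKM at D-2 to 8.09 ± 2.39 FPKM at D6, a log2 difference of -1.47 ± 0.23 (adjusted p = 0.000562), which did not pass without D6 replicate 4 (-1.27, adjusted p = 0.0115). Dact2, a Dishevelled antagonist, was lower in late than in early cTECs, with 107.3 ± 42.8 (n = 4) against 200.9 ± 46.3 FPKM (n = 18) and a difference of -1.07 ± 0.24 (adjusted p = 0.00623). Without D16 the difference was -1.09 (adjusted p = 0.0133) and without D28 -0.716 (adjusted p = 0.0588), so that neither passed. It was below 2-fold with edgeR (-0.98), DESeq2 (-0.94) and no scaling beyond the total (-0.99), had an adjusted p of 0.0516 without the filter, and was -0.53 (adjusted p = 0.333) with D12 counted as late. Dact2 was also one of the 2 genes of the list higher in cTECs than in mTECs (174.2 against 48.6 FPKM), the other being Tnfrsf19. There Dact2 passed in each of the 36 fits with a library left out and in 9 of 10 other alternatives. Without the filter on low genes it did not pass (1.88, adjusted p = 0.728).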

How the data were processed

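Poly(A) RNA of 28 cTEC and 28 mTEC samples was sequenced, each sample from 1 mouse according to the study's methods. The authors trimmed reads with Trimmomatic 0.35, aligned them to GRCm38 with STAR 2.5.1b and quantified genes with RSEM 1.2.28, and deposited expected counts, TPM and FPKM per gene. TPM was used only in an alternative count of the expressed genes. The annotation release was not given in the sources used here, and 50376 of 50600 gene identifiers matched GENCODE M21. From these, expected counts were rounded, scaled by TMM (edgeR 4.0.16) and tested with limma-voom (limma 3.58.1), each cell type alone except for the comparison and the interaction of cell types. Genes entered with a mean FPKM of at least 0.5 and passed if they differed 2-fold or more with an adjusted p (Benjamini-Hochberg) no larger than 0.01. Errors of log2 values are standard errors. Alternatives were edgeR's quasi-likelihood test, DESeq2 (1.42.0), other scalings, no filter, sample quality weights, a replicate block, other sample choices and leaving out each library, and 1 without the 3 libraries with the fewest genes was chosen after seeing the data. Total counts of 4561208 to 108547384 per sample set the precision. The steps were tested on simulated data. Each WNT gene that passed a test was named, as were those with a mean of at least 5 FPKM and, of the 64 other genes, at most the 4 with the largest differences in a comparison. The other WNT genes and list genes named (Wls, Ctnnb1, the R-spondins, Dkk1, Sostdc1 and Tnfrsf19) were chosen after their values were seen. The members and lists were chosen with earlier results of these data known.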

Additional observations from a re-analysis of the deposited data

How the results depend on the processing

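The number of WNT genes that passed between cTECs and mTECs stayed between 10 and 14 under every alternative (11 to 14 without 1 library), and the replicate block left it at 12. Counts over time were small and less stable. For the mTEC course, 1 became 0 with edgeR, quality weights, the replicate block and without the 3 libraries with the fewest genes, 2 at an adjusted p of at most 0.05, and 0 to 1 without 1 library. For D-2 against NPC in mTECs, 0 became 1 at an adjusted p of at most 0.05 (Wnt10b). For D6 against D-2 in cTECs, 1 became 0 with edgeR, no filter, the replicate block and the 2 time points only, and 0 to 1 without 1 library. For late against early in cTECs, 2 became 1 with edgeR, DESeq2 and quality weights (Wnt4 with the latter), 4 at an adjusted p of at most 0.05, 0 with D12 counted as late, and 1 to 2 without 1 library. In mTECs, 0 became 1 without the filter (Wnt10b) and 0 to 1 without 1 library. The 32 genes expressed in cTECs became 19 when 0.5 FPKM was asked of all 28 samples. The causes were not tested. No direction reversed. Counts over all genes also moved, for the mTEC course from 166 to 26 with edgeR, 415 with DESeq2 and 7 with quality weights, for D6 against D-2 in mTECs from 21 to 763 with quality weights, and for late against early in cTECs from 224 to 45 with edgeR and 1048 with quality weights. Nothing in the labels says that cTEC and mTEC samples with the same number in their titles come from the same mouse. Their deviations from the group means had a median correlation of 0.096 (8 of 16 pairs over 0.1), against -0.049 for other numbers (4 of 38 pairs), so that pairing is possible but was not established. Only the fits of both cell types took samples of the same time point and title number as a block. In the fits of a single cell type, the replicate block was the replicate number of the label, shared by different mice across time points. It therefore does not bear on this pairing. With that block Csnk1e no longer passed in the mTEC course (adjusted p = 0.0208). Dkk3 in D6 against D-2 then had an adjusted p of 0.0150 and Wnt8b in the mTEC course one of 0.0142. Late time points had 1 sample each, and genes under about 1 FPKM were often listed at 0, which limits what could be detected.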
